A study of Mus musculus with 26 samples.

Results

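This comparison set 6 cortex libraries from mice fed a high-fat diet for 6 weeks against 4 cortex libraries from mice fed the control diet for 6 weeks, all taken after an experimental stroke. The 10 libraries, of 26 in all, were chosen by their labels for operation, diet and weeks, and no measured value entered the choice. All mice were C57BL/6J, a common inbred strain, and no label names a transgene, an altered allele or a drug. Fat supplied 60% of the calories of the high-fat diet and 6% of the calories of the control diet. The stroke was a focal ischemia, in which the blood supply of one part of the brain is blocked. The tissue was collected 3 days later and held the dead core together with a rim of the endangered cortex around it. The same diet contrast was available in 15-week stroke (6 high-fat and 4 control libraries) and in sham-operated cortex at 6 weeks (3 and 3 libraries), and its values are set beside those of 6-week stroke where they bear on a gene. The labels do not give age, sex, body weight, the method of ischemia or a batch, and they do not say that each library came from a separate mouse. The p-values therefore measure the spread between libraries. That spread was estimated over all 26 libraries fitted together, not over these 10 alone.

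Some days into a stroke the tissue is in its early inflammatory and proliferative phase. Microglia and incoming monocytes clear debris, astrocytes at the border become reactive, and vessel and matrix genes come up around the core. Dietary fat reaches gene expression by several known routes. Fatty acids are ligands of the PPAR nuclear receptors, whose targets handle lipid storage and oxidation, sterols restrain the SREBP2 factor that drives cholesterol synthesis, and obesity raises inflammatory tone in peripheral tissues. The gene lists used here cover these routes, the cell types of the lesion, stress responses and neighbouring tissues. They were chosen with earlier results of these data known, so they are not independent of these data.

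Each of the 10 libraries held between 11400882 and 16962682 counts in genes, and 16325 genes passed the filter on low counts. Entries for fragments that were not assigned to a gene took 45.69% to 54.1% of all counts and were left out. The stroke label was checked on 2 injury genes. Gfap, the intermediate filament of astrocytes, was at 554 to 941 CPM (counts scaled to a common library size, with TMM factors) in the 10 stroke libraries and at no more than 107.5 CPM in any sham library, and the phagocyte gene Spp1 was at 106 to 970 CPM against no more than 15.6 CPM. Genes of cortical excitatory neurons were present at like levels in all 10, with a list level of 7.34 to 7.53 log2 CPM (the mean log2 CPM of the tested members, prior count 2). One library stood apart. Replicate 6 of the high-fat group held 878 CPM of Ttr, the transthyretin gene that marks choroid plexus, where the other 9 libraries held between 1.32 and 47.2 CPM, and values without it are given beside the lists of choroid plexus, hippocampus and ependyma. The labels' diet could not be checked against a marker gene.

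No gene differed between the diets after correction for multiple testing. By edgeR's quasi-likelihood test, 0 of 16325 genes (0%) passed an adjusted p of 0.05, and the smallest adjusted p was 0.667. At an unadjusted p under 0.05 the high-fat group was higher for 486 genes (2.98%) and lower for 655 genes (4.01%). All 6 high-fat libraries lay above all 4 control libraries for 170 genes (1.04%) and below them for 198 genes (1.21%). The log2 fold change, taken as high-fat minus control throughout, was above 0 for 7912 genes (48.5%), with a median of -0.01 over all genes. DESeq2 also called 0 genes, with 1105 at an unadjusted p under 0.05, and limma voom with quality weights called 0, with 2696. When only the 10 libraries were fitted, 1 gene was called, the inflammasome receptor gene Naip2. The gene differences below are therefore values with their errors, and every adjusted p in 6-week stroke that stands behind them is 0.667 or above.

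The balance of higher and lower genes moved with scaling and with base composition. Upper quartile scaling gave 629 higher and 446 lower genes at an unadjusted p under 0.05, and RLE size factors gave 555 and 525. Genes on the high-fat side had a median transcript GC content of 55.29%, those on the control side 42.49%, and all genes tested 49.62%. Along GC content the median log2 fold change went from -0.13 in genes with a median GC of 36.8% to 0.14 in genes with a median of 63.4%. Each library had its own trend. On the scale of log2 change per 10% GC, high-fat replicates 1 to 6 had slopes of 0.049, 0.115, 0.061, 0.051, 0 and -0.075, and control replicates 1 to 4 slopes of 0, -0.015, -0.096 and -0.096. The slope was above 0 in 4 of the 6 high-fat libraries and in 0 of the 4 control libraries, so the trend moved with diet in part. Its part in single genes was not tested beyond a fit that takes it out. With the GC trend of each library as an offset the counts were 429 higher and 206 lower, again with 0 genes called, and with GC and length trends together 475 and 227.

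**Figure D1:**
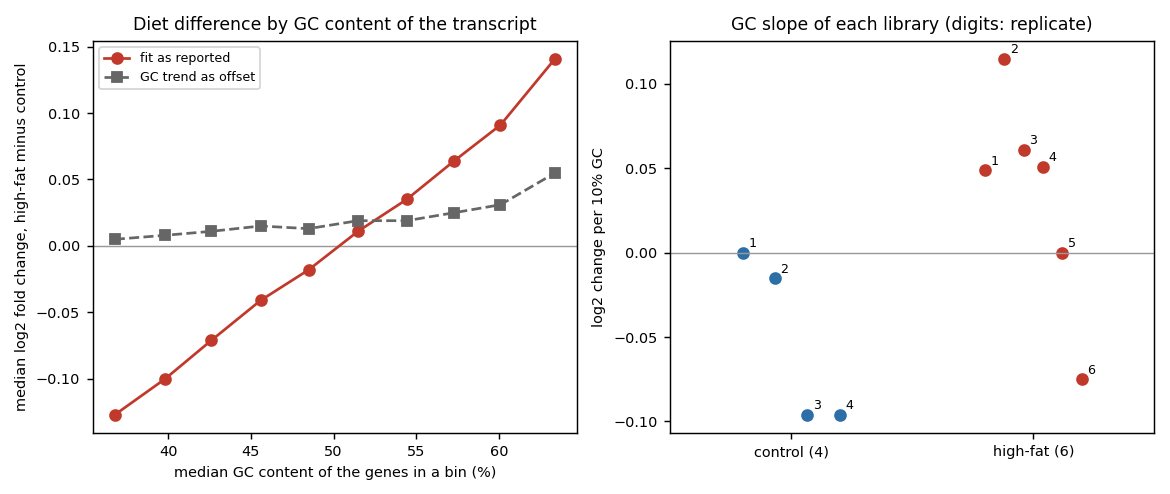
Left, median log2 fold change (high-fat minus control, y axis) of genes binned by the GC content of their transcript (x axis, %), as fitted (circles) and with the GC trend of each library as an offset (squares). Right, slope of each library's deviation per 10% GC for the 4 control and 6 high-fat libraries. The fitted line climbs from -0.13 to 0.14, the corrected line stays between 0.005 and 0.055, and control replicates 3 and 4 hold the lowest slopes.

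Among genes on the high-fat side, the smallest unadjusted p belonged to Hist1h2ak, a gene of the core histone H2A (ENSMUSG00000063021). It was at 7.69, 10.8 and 17.7 CPM (lowest, median and highest) in the high-fat libraries and at 6.68, 4.01, 6.87 and 6.06 CPM in control replicates 1 to 4. The groups did not overlap, and the log2 fold change was 1.02 ± 0.23 (SE; edgeR unadjusted p = 0.00019, adjusted p = 0.667). Cebpb, a transcription factor of inflammation and of fat cell differentiation, stood at 4.27 ± 0.949 CPM (SD, n = 6) and 2.36 ± 0.615 CPM (SD, n = 4), a log2 fold change of 0.86 ± 0.23. Acacb makes the malonyl-CoA that limits fatty acid entry into mitochondria. It was at 3.46, 4.07 and 4.29 CPM on the high-fat diet and at 2.18, 2.74, 3.26 and 2.90 CPM on the control diet, with no overlap and a log2 fold change of 0.52 ± 0.14. Slc16a1 encodes the transporter MCT1, which carries lactate and ketone bodies across the vessel wall and into glia. Its values were 70.2, 72.4 and 82.3 CPM against 57.5, 60.3, 63.4 and 65.4 CPM, so that the groups lay next to each other without overlap at a log2 fold change of 0.28 ± 0.08. Ppp1r14a, an inhibitor of myosin phosphatase in smooth muscle, was at 13.2 ± 1.51 CPM (SD, n = 6) and 8.48 ± 0.577 CPM (SD, n = 4), also without overlap. The other genes of these 12 were the histone genes Hist2h4 and Hist1h3e, the early response gene Ier5l, the ER-associated degradation gene Tmem259, the UDP-glucose receptor gene P2ry14, the topoisomerase gene Top3a and the adrenergic receptor gene Adra1d, with log2 fold changes between 0.25 and 0.72. Tmem259 and Adra1d overlapped between the diets, and the other 5 did not. Transcript GC content ran from 39.4% (P2ry14) and 42.9% (Slc16a1) to 67.2% (Cebpb) and 68.5% (Hist1h2ak) in the 12 genes. Over all tested genes binned by GC, those with a median of 63.4% had a median log2 fold change of 0.14 as fitted. The fit with the GC trend as an offset covered these 12 genes too, but its values for them are not given here. The part of GC content in the 12 values was not tested further.

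On the control side the leading differences were small in size. Tmem263, a small membrane protein gene (ENSMUSG00000060935), was at 40.98, 43.8 and 47.1 CPM in the high-fat libraries and at 52.2, 49.2, 55.7 and 51.0 CPM in the control libraries. The groups did not overlap, and the log2 fold change was -0.25 ± 0.06 (edgeR unadjusted p = 0.00065, adjusted p = 0.667). Brcc3, a deubiquitinase gene, stood at 40.6 ± 1.57 CPM (SD, n = 6) against 48.0 ± 1.92 CPM (SD, n = 4). The 12 genes also held the noncoding Gt(ROSA)26Sor, the centrosome gene Cep70, the cyclin C gene Ccnc, the mitochondrial tRNA synthetase gene Nars2, the chromatin genes Jade3 and Lrif1, and Abhd13, Zfp2, Fam126b and Lrp12, with log2 fold changes from -0.19 to -0.45. Their transcripts had GC contents between 33.4% and 48.9%. With the GC trend as an offset these 12 genes kept their sign, at values from -0.05 (Ccnc) to -0.32 (Gt(ROSA)26Sor), and Tmem263, Brcc3, Abhd13, Cep70, Zfp2, Fam126b, Ccnc and Lrif1 moved by over 1.5 times.

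**Figure D2:**
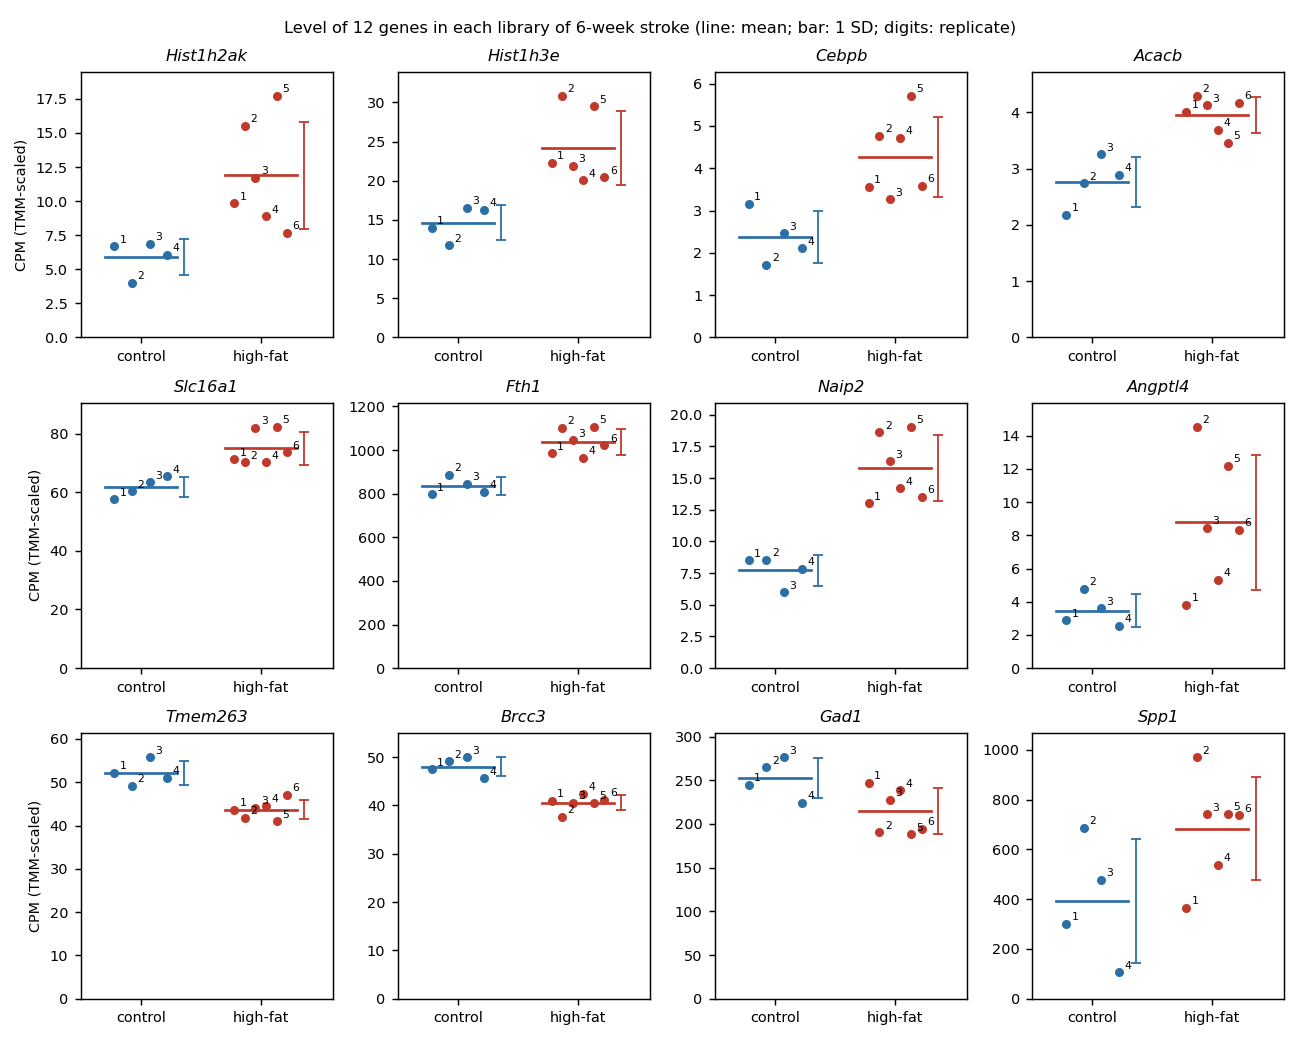
Level in CPM (y axis, from 0) of 12 genes in each library of 6-week stroke by diet; points are libraries with their replicate number, the line is the mean and the bar 1 SD. Hist1h2ak, Hist1h3e, Cebpb, Acacb, Slc16a1, Fth1 and Naip2 lie wholly above, and Tmem263 and Brcc3 wholly below, the control libraries, while Angptl4, Gad1 and Spp1 overlap.

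Replication-dependent histone genes leaned to the high-fat side. These genes package newly made DNA and are switched on in S phase, and their messages end in a conserved stem-loop in place of a poly(A) tail. A total RNA library retains such messages. Of 65 genes listed, 48 were tested, and 0 of the 48 was called. At an unadjusted p under 0.05, 29 of 48 were on the high-fat side and 0 on the control side, beside 2.98% and 4.01% of all genes. In 12 of 48 all high-fat libraries lay above all control libraries, beside 1.04% of all genes. The median log2 fold change was 0.48, and 45 of 48 values were above 0. The list level was 3.19, 3.55, 3.25, 3.13, 3.59 and 3.20 log2 CPM in high-fat replicates 1 to 6 and 2.73, 2.61, 3.09 and 2.87 log2 CPM in control replicates 1 to 4, so the groups did not overlap.

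Most of the histone messages tested held a hairpin of the same shape. A search of the whole length of the longest GENCODE M21 transcript of each gene for a 16-base hairpin, a 6-base stem that opens with GG around a 4-base loop, found one in 34 of 48 histone genes (70.8%) and in 1451 of 16072 other tested genes (9.03%). Hist1h2ak was among the histone genes without a match. One sequence, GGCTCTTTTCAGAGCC, was shared by 17 histone genes. The stem-loops of 4 members with a match are shown as examples. The search itself fixed the opening GG, the paired stem and the length of 16 bases, so matches could differ only in the other letters. Capitals mark the hairpin, and 5 bases on each side are in lower case.
Hist1h3b: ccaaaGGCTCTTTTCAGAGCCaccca
Hist1h3e: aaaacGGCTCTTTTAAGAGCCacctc
Hist1h4b: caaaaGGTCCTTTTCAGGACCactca
Hist2h4: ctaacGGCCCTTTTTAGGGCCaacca
The H3 gene Hist1h3e and the H4 genes Hist1h4b and Hist2h4 differ from Hist1h3b within the stem or the loop.

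Hist1h3e was at 20.1, 22.1 and 30.8 CPM in the high-fat libraries and at 14, 11.8, 16.6 and 16.3 CPM in the control libraries, with a log2 fold change of 0.72 ± 0.20. Hist2h4 stood at 17.8 ± 1.57 CPM (SD, n = 6) and 14.02 ± 0.816 CPM (SD, n = 4), and Hist1h4b at 13.7 ± 1.79 CPM (SD, n = 6) and 9.25 ± 2.00 CPM (SD, n = 4). High-fat replicates 2 and 5 held the most Hist1h3e and Hist1h2ak, and control replicate 2 the least. The histone genes share long stretches of sequence, so each single gene's count is uncertain. The 3 values under 0 were those of Hist2h3c2, Hist2h2be and Hist3h2a. The count of 29 rested in part on single libraries, since it was 17 without control replicate 1, 19 without control replicate 2 and 19 without high-fat replicate 5, and it was 8 with 1 surrogate variable in the model, a factor estimated from the counts themselves (median 0.28). With the GC trend as an offset it was 21, and the list levels then reached from 3.07 to 3.63 on the high-fat diet and from 2.65 to 3.13 on the control diet, a slight overlap.

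**Figure D3:**
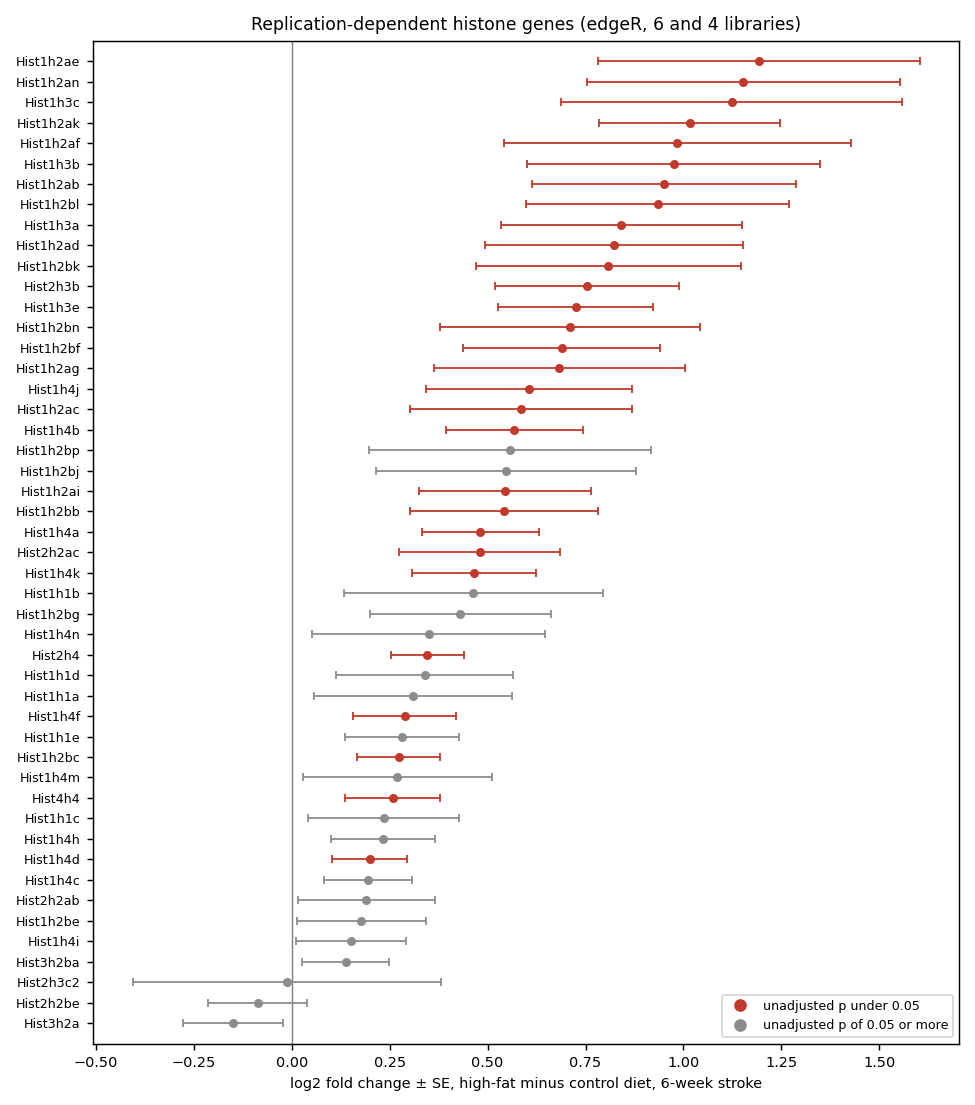
Log2 fold change (high-fat minus control, x axis) with its SE for each of the 48 tested replication-dependent histone genes. Red points have an unadjusted p under 0.05 and grey points do not; 45 of 48 lie right of 0, and none passed an adjusted p of 0.05.

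The promoters of these genes also share features. Promoters of 2 members are printed, from RefSeq on GRCm38.p6, because Hist1h2ak had the smallest p of the family and Hist1h3b stands for the H3 genes; the windows run from 250 bases before to 50 bases after the annotated start, and capitals mark CCAAT (or ATTGG on the other strand) and TATAAA (or TTTATA).
Hist1h2ak, chr13:21753863-21754162, minus strand: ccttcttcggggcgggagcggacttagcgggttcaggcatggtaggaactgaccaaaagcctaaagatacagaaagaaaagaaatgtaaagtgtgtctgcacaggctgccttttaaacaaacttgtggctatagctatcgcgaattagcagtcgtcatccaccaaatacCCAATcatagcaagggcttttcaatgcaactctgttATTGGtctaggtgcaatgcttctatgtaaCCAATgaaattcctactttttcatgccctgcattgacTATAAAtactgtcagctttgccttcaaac
Hist1h3b, chr13:23752095-23752394, plus strand: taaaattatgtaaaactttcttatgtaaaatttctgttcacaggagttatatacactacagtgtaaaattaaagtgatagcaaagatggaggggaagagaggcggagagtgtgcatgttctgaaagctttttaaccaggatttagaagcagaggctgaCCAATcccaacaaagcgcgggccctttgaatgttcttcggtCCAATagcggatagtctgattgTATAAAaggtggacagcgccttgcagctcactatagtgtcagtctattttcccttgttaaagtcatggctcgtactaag
Promoters were found for 44 of the 48 genes (45 windows). CCAAT stood on either strand in 36 of 45 (80%), beside 37.4% of all 32851 promoters of the same length, and TATAAA in 28 of 45 (62.2%), beside 13.6%. The window of Hist1h2ak overlaps that of Hist1h2bn, which lies head to head with it on the plus strand, and the log2 fold changes were 1.02 and 0.71. Windows of other H2A and H2B pairs, such as Hist1h2ad and Hist1h2bf, overlap in the same way. Letters shared by such a pair were counted in both windows, so the 45 windows are not all separate. These matches describe the letters in the windows only.

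Other proliferation genes overlapped between the diets. Over the 27 cell cycle genes the median was 0.46, with 25 above 0, 2 on the high-fat side at an unadjusted p under 0.05 (2.98% of all genes), and 0 with separate groups (1.04% of all genes). With 1 surrogate variable the median was 0.01. Mki67, the classic marker of dividing cells, was at 41.3, 60.4 and 69.5 CPM on the high-fat diet and at 32.1, 53.9, 44.8 and 25.3 CPM on the control diet. Those ranges overlapped, and the log2 fold change was 0.55 ± 0.40. Aurkb, a kinase of mitosis, had 0.96 ± 0.42, Foxm1, a transcription factor of the G2 phase, 0.73 ± 0.34, and the replication licensing gene Mcm2 0.48 ± 0.26. Control replicate 2 was the highest control library for the cell cycle list, at 3.72 log2 CPM among high-fat values of 3.44 to 4.05, and at the same time the lowest of all 10 for histones.

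Genes that take up, store or burn fat leaned to the high-fat side. Of 32 genes of fatty acid uptake and PPAR signalling, 26 had a log2 fold change above 0, with a median of 0.21. At an unadjusted p under 0.05, 5 were on the high-fat side and 1 on the control side, beside 2.98% and 4.01% of all genes. The list level was 3.81, 4.17, 4.03, 3.91, 4.10 and 4.03 log2 CPM in high-fat replicates 1 to 6 and 3.61, 3.90, 3.78 and 3.62 log2 CPM in control replicates 1 to 4. Genes of activated phagocytes, which also handle lipid, stood at 4.81, 5.74, 5.33, 5.02, 5.51 and 5.0 and at 4.39, 5.37, 4.85 and 3.72 log2 CPM in the same order, and their part in the fat genes was not tested. In both lists high-fat replicate 2 was highest and control replicate 2 was the highest control library. With 1 surrogate variable the median of the fatty acid list was 0.07. Angptl4, a PPAR target that inhibits lipoprotein lipase, was at 3.82, 8.39 and 14.5 CPM against 2.88, 4.78, 3.61 and 2.57 CPM. Of its 6 high-fat libraries, 5 lay above the highest control library, and the log2 fold change was 1.34 ± 0.48 (edgeR unadjusted p = 0.0109). Plin4, a coat protein of lipid droplets, was at 4.92, 7.10 and 7.61 CPM against 3.10, 5.03, 3.08 and 3.88 CPM, a log2 fold change of 0.83 ± 0.35. Plin2, the common lipid droplet coat, had a larger value and a larger error at 0.99 ± 0.52, with 43.6 to 119 CPM against 20.2 to 64.8 CPM. The lipase gene Pnpla2 had 0.30 ± 0.12. The fatty acid receptor gene Cd36 (0.52 ± 0.44, and -0.11 with 1 surrogate variable), the carnitine palmitoyltransferase gene Cpt1a (0.26 ± 0.15) and the pyruvate dehydrogenase kinase gene Pdk4 (0.10 ± 0.09) overlapped between the diets. None of the 26 promoters found for 24 of the 32 genes held the PPAR element core GGTCANAGG, beside 1.72% of all promoters. With so low a share over all promoters, 0 of 26 says little about these genes.

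Cholesterol synthesis and cholesterol efflux leaned opposite ways. The synthesis list leaned to the control side, with 6 of 25 values above 0, a median of -0.06, and 3 genes on the control side and 0 on the high-fat side at an unadjusted p under 0.05, beside 4.01% and 2.98% of all genes. Hmgcs1, an early enzyme of the pathway, had -0.14 ± 0.06 and the sterol dehydrogenase gene Nsdhl -0.19 ± 0.07. Without high-fat replicate 3 the median of the list was 0.0028. The 17 genes of cholesterol efflux and lysosomal lipid had a median of 0.16, with 16 values above 0 and 0 at an unadjusted p under 0.05, and the median was -0.01 with 1 surrogate variable. Their member Apoe, the main lipid carrier of the brain, was at 1072 to 1360 CPM against 1011 to 1061 CPM, without overlap but with a log2 fold change of only 0.17 ± 0.12. The liver X receptor gene Nr1h3 (0.33 ± 0.20), Lpcat3 (0.20 ± 0.12) and the efflux pump gene Abca1 (0.17 ± 0.24) overlapped. Fatty acid synthesis showed no lean, with a median of -0.03 over 21 genes, 0.01 ± 0.12 for Fasn and -0.15 ± 0.07 for the desaturase gene Scd1.

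Insulin, leptin and fuel transport genes gave medians near that of all genes. The insulin and IGF list had a median of 0.06 over 25 genes, with Irs2, an adaptor of the insulin receptor, at 0.26 ± 0.12 and Igf1 at 0.00 ± 0.11. The leptin receptor gene Lepr had 0.09 ± 0.24, and the median of 16 leptin, adiponectin and satiety genes was -0.03. In the glucose and monocarboxylate list (median -0.03 over 24 genes) Slc16a1, described above, was the one gene on the high-fat side at an unadjusted p under 0.05. The share over all genes was 2.98%. On the control side were 2, beside 4.01% of all genes, the monocarboxylate transporter gene Slc16a7 (-0.25 ± 0.10) and the glycolysis gene Pgk1 (-0.11 ± 0.05). The vessel glucose transporter gene Slc2a1 had 0.30 ± 0.15. Fth1, the heavy chain of the iron store ferritin, was among the most abundant genes that separated the diets, at 964, 1033 and 1107 CPM against 798, 888, 846 and 807 CPM. Its log2 fold change was 0.31 ± 0.09. It was the only one of 25 oxidative stress and iron genes with an unadjusted p under 0.05. That count is near the 2.98% of all genes on the high-fat side at that p.

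Stress hormone and early response genes leaned to the high-fat side by small amounts. Glucocorticoid response genes had a median of 0.10, with 19 of 24 above 0 and 3 on the high-fat side at an unadjusted p under 0.05 (2.98% of all genes), and their list level was 4.67 to 4.84 against 4.55 to 4.69 log2 CPM. Cebpd, a partner of Cebpb that glucocorticoids and cytokines induce, led with 7.31, 11.2 and 16.2 CPM against 6.26, 7.13, 6.78 and 5.33 CPM. The groups were separate at a log2 fold change of 0.86 ± 0.32. The classic glucocorticoid targets gave smaller values, 0.16 ± 0.13 for Fkbp5, 0.10 ± 0.10 for Tsc22d3, 0.24 ± 0.17 for Sgk1 and 0.11 ± 0.10 for Ddit4, all with overlap. Sult1a1, a sulfotransferase gene, separated the groups at 0.37 ± 0.18, and the clock and glucocorticoid gene Per1 was at -0.01 ± 0.17. The element core ACANNNTGT was in 4 of 30 promoters found for 20 of these genes (13.3%), beside 6.85% of all promoters. In the clock list 2 of 18 values were above 0 (median -0.07), with Clock at -0.15 ± 0.05, all high-fat libraries below all control libraries, and Nr1d2 at -0.15 ± 0.07. Of 24 immediate early genes, 18 were above 0 and 6 were on the high-fat side at an unadjusted p under 0.05, beside 2.98% of all genes, with a median of 0.13. Ier5l (0.58 ± 0.16), Jund (0.40 ± 0.14), Klf4 (0.39 ± 0.17), Junb (0.32 ± 0.15) and Jun (0.28 ± 0.11), all early response transcription factors or regulators, were among them. Fos had 0.11 ± 0.26, and -0.040 without control replicate 4. The immediate early list level was 4.37 to 4.66 log2 CPM on the high-fat diet. It was 4.36, 4.38, 4.49 and 4.01 log2 CPM in control replicates 1 to 4, so the groups overlapped and control replicate 4 was lowest.

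Injury genes were higher on average in the high-fat libraries, but their libraries overlapped widely. In bulk tissue, more cells of a type and more RNA per cell cannot be told apart. All 24 tested genes of activated phagocytes had a log2 fold change above 0 (median 0.55), none had an unadjusted p under 0.05, and their list level was 4.81 to 5.74 log2 CPM against 4.39, 5.37, 4.85 and 3.72 log2 CPM. The SD of this level was 0.35 (high-fat) and 0.70 (control) at 6 weeks, and 1.28 and 1.02 at 15 weeks. The 15-week groups entered the estimate of spread behind these p-values too. Spp1, or osteopontin, was at 365, 739 and 970 CPM on the high-fat diet and at 301, 686, 478 and 106 CPM on the control diet. Control replicates 2 and 3 thus sat inside the high-fat range and control replicates 1 and 4 below it, and the log2 fold change was 0.80 ± 0.65. Lgals3 had 1.00 ± 0.60, Cd68 0.73 ± 0.43 and the lipid receptor gene Trem2 0.60 ± 0.30. The median of the list was 0.87 without control replicate 2, 0.37 without control replicate 4 and -0.0050 with 1 surrogate variable in the model. Homeostatic microglia genes had a median of 0.17 (-0.05 with 1 surrogate variable), with the purinergic receptor gene P2ry12 at -0.05 ± 0.10.

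Genes of incoming myeloid cells leaned to the high-fat side. The monocyte and neutrophil list had a median of 0.44 over 23 tested genes, with 22 above 0 and 3 on the high-fat side at an unadjusted p under 0.05, beside 2.98% of all genes, and a median of -0.08 with 1 surrogate variable. Ly6c2, a surface protein of inflammatory monocytes, was at 1.04, 1.69 and 6.22 CPM against 0.352, 1.15, 0.792 and 0.395 CPM, with its highest value in high-fat replicate 5 and a log2 fold change of 1.85 ± 0.69. Chil3, a secreted protein of macrophages, separated the groups at 1.88, 3.61 and 6.97 CPM against 1.05, 1.85, 1.85 and 0.527 CPM, a log2 fold change of 1.61 ± 0.66. The coagulation factor gene F10 had 1.63 ± 0.59 at levels near 1 CPM and the chemokine receptor gene Ccr2 0.86 ± 0.56. Of 24 lymphocyte genes listed 6 were tested, and these had a median of 0.14. In the cytokine and chemokine list (median 0.33 over 23 genes, -0.06 with 1 surrogate variable, 0 at an unadjusted p under 0.05) Cxcl16 had 0.85 ± 0.45, Tnf 1.12 ± 0.63, Ccl2 0.76 ± 0.54, Cxcl10 0.34 ± 0.53 and Il1b -0.14 ± 0.45.

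Several Naip genes separated the diets. The NAIP proteins are sensors that bind bacterial flagellin and secretion system proteins and assemble the NLRC4 inflammasome. Naip2 was at 13, 15.2 and 19.1 CPM in the high-fat libraries and at 8.51, 8.53, 5.99 and 7.83 CPM in the control libraries. The lowest high-fat library was above every control library, and the log2 fold change was 1.03 ± 0.36 (edgeR unadjusted p = 0.00892, adjusted p = 0.667). Naip6 (1.05 ± 0.35), Naip5 (0.86 ± 0.33) and the DNA sensor gene Aim2 (0.40 ± 0.19) also separated the groups, which makes 4 of 13 genes of the list, beside 1.04% of all genes. The Naip genes are near-identical neighbours that can split reads, so they are uncertain one by one. The inflammasome sensor gene Nlrp3 had 0.31 ± 0.29 and overlapped. The median of the list was 0.40, and 0.02 with 1 surrogate variable. Among 22 genes of toll-like receptors and NF-kB (median 0.39, 21 above 0) the adaptor gene Myd88 had 0.59 ± 0.23 and Nfkb1 0.22 ± 0.10, the latter without overlap.

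Interferon, antigen presentation and complement genes leaned the same way. In 0 of these genes did all high-fat libraries lie above all control libraries, beside 1.04% of all genes. With so low a share over all genes, that 0 says little about these lists. All 29 interferon response genes were above 0 with a median of 0.56. None had an unadjusted p under 0.05, beside 2.98% of all genes on the high-fat side. Their list level ran from 3.54 to 4.58 log2 CPM on the high-fat diet, highest in replicate 5, and was 3.31, 3.93, 3.29 and 3.44 log2 CPM on the control diet. Ifi44 had 0.80 ± 0.40, the antiviral tether gene Bst2 0.69 ± 0.40, Xaf1 0.49 ± 0.26 and the antiviral GTPase gene Mx1 0.51 ± 0.39. The core of the interferon-stimulated response element, GAAANNGAA on either strand, was in 13 of 22 promoters found for 20 of the 29 genes (59.1%), beside 8.56% of all promoters. The promoter of Bst2 is printed, from RefSeq on GRCm38.p6, as one that holds overlapping matches, in capitals.
Bst2, chr8:71537423-71537722, minus strand: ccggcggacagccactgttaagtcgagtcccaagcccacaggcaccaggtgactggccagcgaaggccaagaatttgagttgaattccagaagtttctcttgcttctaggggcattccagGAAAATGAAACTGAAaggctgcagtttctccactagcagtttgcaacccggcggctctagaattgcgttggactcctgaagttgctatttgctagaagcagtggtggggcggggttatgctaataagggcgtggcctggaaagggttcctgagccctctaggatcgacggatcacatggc
All 20 antigen presentation genes were above 0 (median 0.47), and 2 were on the high-fat side at an unadjusted p under 0.05, beside 2.98% of all genes. The peptide loading genes Tapbp and Tap2 had 0.45 ± 0.20 and 0.44 ± 0.21, and the class II gene H2-Aa 0.45 ± 0.51. Of 15 complement genes 14 were above 0 (median 0.43), with C3 at 0.58 ± 0.43, C1qb at 0.52 ± 0.31 and the receptor gene C3ar1 at 0.81 ± 0.46. In the interleukin 6 family list (median 0.39 over 16 genes, and 0.67 without control replicate 2) 4 genes were on the high-fat side at an unadjusted p under 0.05, beside 2.98% of all genes, namely Cebpb and Cebpd, the cytokine gene Il11 (1.68 ± 0.62, at most 1.48 CPM in any library) and the feedback inhibitor gene Socs1 (0.82 ± 0.31). With 1 surrogate variable the medians were 0.10 for interferon, 0.05 for antigen presentation, 0.03 for complement, -0.03 for interleukin 6 and 0.01 for toll-like receptor genes.

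**Figure D4:**
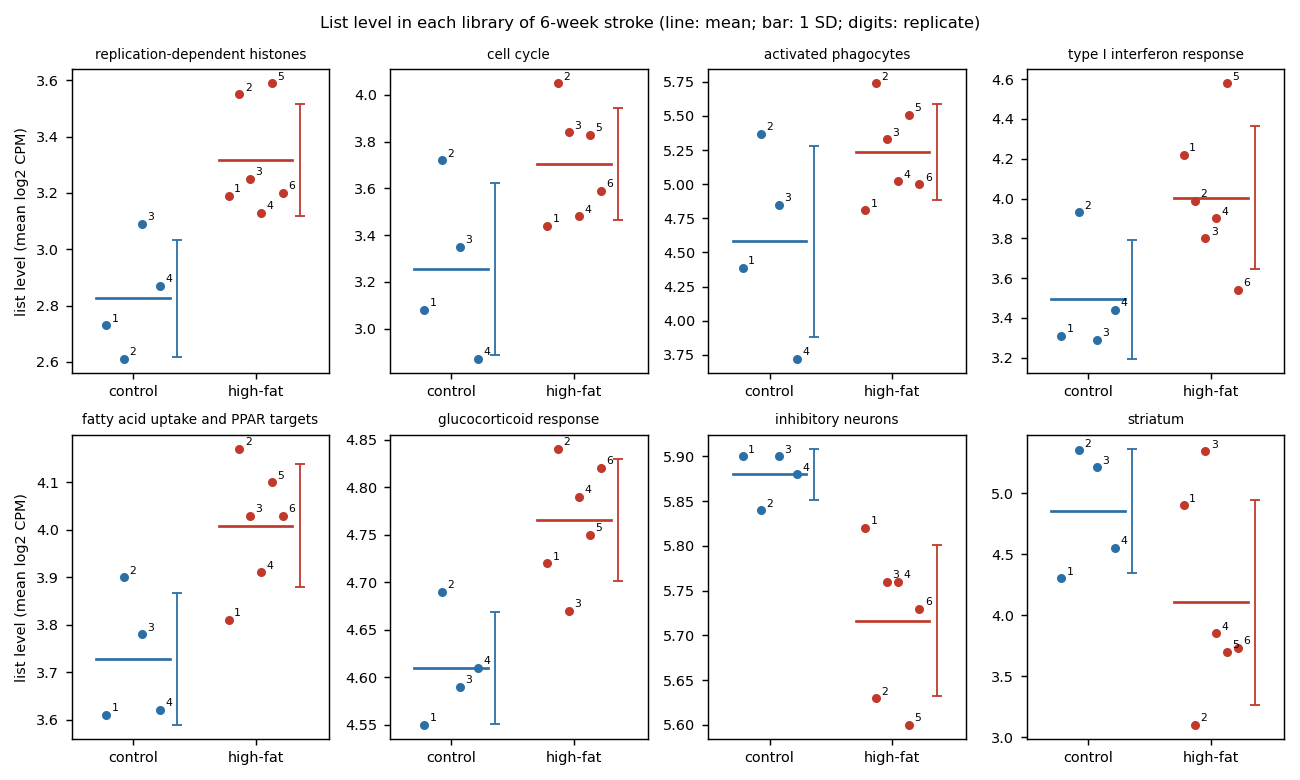
List level (mean log2 CPM of the tested members, y axis) of 8 gene lists in each library of 6-week stroke by diet; points are libraries with their replicate number, the line is the mean and the bar 1 SD. Histone levels lie apart at 3.13 to 3.59 and 2.61 to 3.09, inhibitory neuron levels lie apart the other way, and control replicate 2 lies inside the high-fat range in the phagocyte, cell cycle and interferon panels, as does control replicate 3 in the phagocyte panel.

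Among glial genes the reactive astrocyte and myelin lists leaned to the high-fat side. Reactive astrocyte genes had a median of 0.39, with 23 of 24 above 0 and 0 at an unadjusted p under 0.05, and Gfap stood at 864 ± 51.4 CPM (SD, n = 6) and 693 ± 161 CPM (SD, n = 4). With 1 surrogate variable the median was -0.11, with Gfap at -0.056 and Serpina3n at -0.15. The protease inhibitor gene Serpina3n had 0.52 ± 0.50, Timp1 0.86 ± 0.49 and the immunoproteasome gene Psmb8 0.67 ± 0.36. Homeostatic astrocyte genes were level, with a median of -0.01 over 20 genes, and the bicarbonate transporter gene Slc4a4 had -0.22 ± 0.10. Myelin genes were above 0 in 16 of 16 cases at a small median of 0.17, with Mal at 0.24 ± 0.10 and Cnp at 0.25 ± 0.12. In the oligodendrocyte precursor list (median 0.15 over 12 genes) the lineage factor gene Olig1 was at 49.6, 54.0 and 61.3 CPM against 43.3, 40.3, 47.3 and 41.3 CPM. Olig1 separated the groups at 0.35 ± 0.14, Olig2 had 0.35 ± 0.15 with overlap, and Sox10 had 0.29 ± 0.15.

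Matrix genes had one of the higher list medians, 0.56, with 31 of 32 above 0 and 2 on the high-fat side at an unadjusted p under 0.05, beside 2.98% of all genes. These were the proteases Mmp12 (1.25 ± 0.58) and Mmp2 (0.69 ± 0.29). Mmp3 had 1.28 ± 0.69, the scar glycoprotein gene Tnc 0.84 ± 0.54 and the collagen gene Col1a1 0.59 ± 0.50. All of these overlapped between the diets, and the list median was 0.03 with 1 surrogate variable. Barrier endothelium had a median of 0.08, with the tight junction gene Cldn5 at 0.40 ± 0.24, the angiopoietin receptor relative Tie1 at 0.54 ± 0.27 and Ly6c1 at 0.20 ± 0.11. Activated endothelium had a median of 0.33 (-0.00085 with 1 surrogate variable), with the growth factor gene Pgf at 0.66 ± 0.28 and the adhesion gene Vcam1 at 0.17 ± 0.14. Haemoglobin message, a measure of blood left in the tissue, was level, with Hbb-bs at 0.03 ± 0.20.

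Inhibitory neuron genes leaned to the control side. Of 18 genes 3 had a log2 fold change above 0, the median was -0.11, and 3 were on the control side at an unadjusted p under 0.05, beside 4.01% of all genes. The list level was 5.82, 5.63, 5.76, 5.76, 5.60 and 5.73 log2 CPM in high-fat replicates 1 to 6 and 5.90, 5.84, 5.90 and 5.88 log2 CPM in the control libraries. The groups did not overlap, also with the GC trend taken out (5.62 to 5.81 against 5.84 to 5.88). In 0 of the 18 single genes did all high-fat libraries lie below all control libraries, beside 1.21% of all genes. Of the 48 lists, the histone level and the level of 4 adipocyte genes (0.35 to 0.64 against 0.68 to 1.13 log2 CPM) also lay apart as fitted. Gad1, which makes the transmitter GABA, was at 188, 211 and 247 CPM against 245, 265, 276 and 224 CPM, a log2 fold change of -0.24 ± 0.10. The cannabinoid receptor gene Cnr1 had -0.24 ± 0.09 and the secreted protein gene Reln -0.47 ± 0.19. With 1 surrogate variable the median was -0.03. Excitatory neuron genes had a median of -0.01, with Camk2a at -0.03 ± 0.15. Of these 22 genes, 2 were on the high-fat side at an unadjusted p under 0.05, beside 2.98% of all genes. They were the cortical transcription factor genes Fezf2 (0.28 ± 0.11) and Neurod2 (0.32 ± 0.12). Ecel1, an injury-induced protease of neurons, was at 2.19, 2.65 and 4.13 CPM against 5.06, 5.35, 4.58 and 5.07 CPM, without overlap.

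Markers of neighbouring tissue varied between libraries. All 14 striatum genes were below 0 with a median of -0.66 (-0.03 with 1 surrogate variable), none at an unadjusted p under 0.05. The list level ran from 3.10 (replicate 2) to 5.34 (replicate 3) log2 CPM in the high-fat group. It was 4.30, 5.35, 5.21 and 4.55 log2 CPM in the control group. The dopamine receptor gene Drd1 was at 21.8 to 70.8 CPM against 36.5 to 82.0 CPM, and the retinoic acid receptor gene Rarb had -0.47 ± 0.30. Several inhibitory neuron markers are also made in striatum, and the part of that tissue in their difference was not tested. Choroid plexus genes had a median of 1.07 over 10 tested genes, which was -0.18 without high-fat replicate 6. In that library Folr1 was at 9.74 CPM and Calml4 at 2.78 CPM, and the hippocampal genes Fibcd1 and Lct were at 36.8 and 7.47 CPM. Ttr had a log2 fold change of 4.78 ± 1.82 with that library and 1.16 without it. Of 9 adipocyte genes 4 were tested (median -0.37, and -0.10 without control replicate 4 or -0.16 without control replicate 2), among them Retn (-1.03 ± 0.53) and Adrb3 (-0.62 ± 0.33), at no more than 2.17 CPM in any library. The ciliary factor gene Foxj1 of ependyma had 0.46 ± 0.17 without overlap, and also 0.46 without high-fat replicate 6. Hippocampal genes had a median of 0.15 over 11, which was -0.03 without high-fat replicate 6, and ependymal genes a median of 0.34 over 7, which was 0.36 without it.

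The remaining lists covered respiration, stress and further tissues. Nuclear-encoded respiratory chain genes had a median of -0.05 over 25 genes, with 7 above 0, mitochondrially encoded genes -0.05 over 10, hypoxia genes -0.05 over 14 and heat shock and unfolded protein genes -0.02 over 24. Genes of p53 and apoptosis had a median of 0.15 over 18, with 15 above 0 (0.03 with 1 surrogate variable), and axon injury genes 0.06 over 16. Among markers of other tissues the medians were 0.00 for meninges over 11 genes, -0.06 for hypothalamus over 3, 0.04 for blood cells over 7 and -0.12 for skeletal muscle over 7. None of these lists held more than 1 gene per direction at an unadjusted p under 0.05, apart from the respiratory chain with 2 on the control side. The shares over all genes were 2.98% on the high-fat side and 4.01% on the control side.

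**Figure D5:**
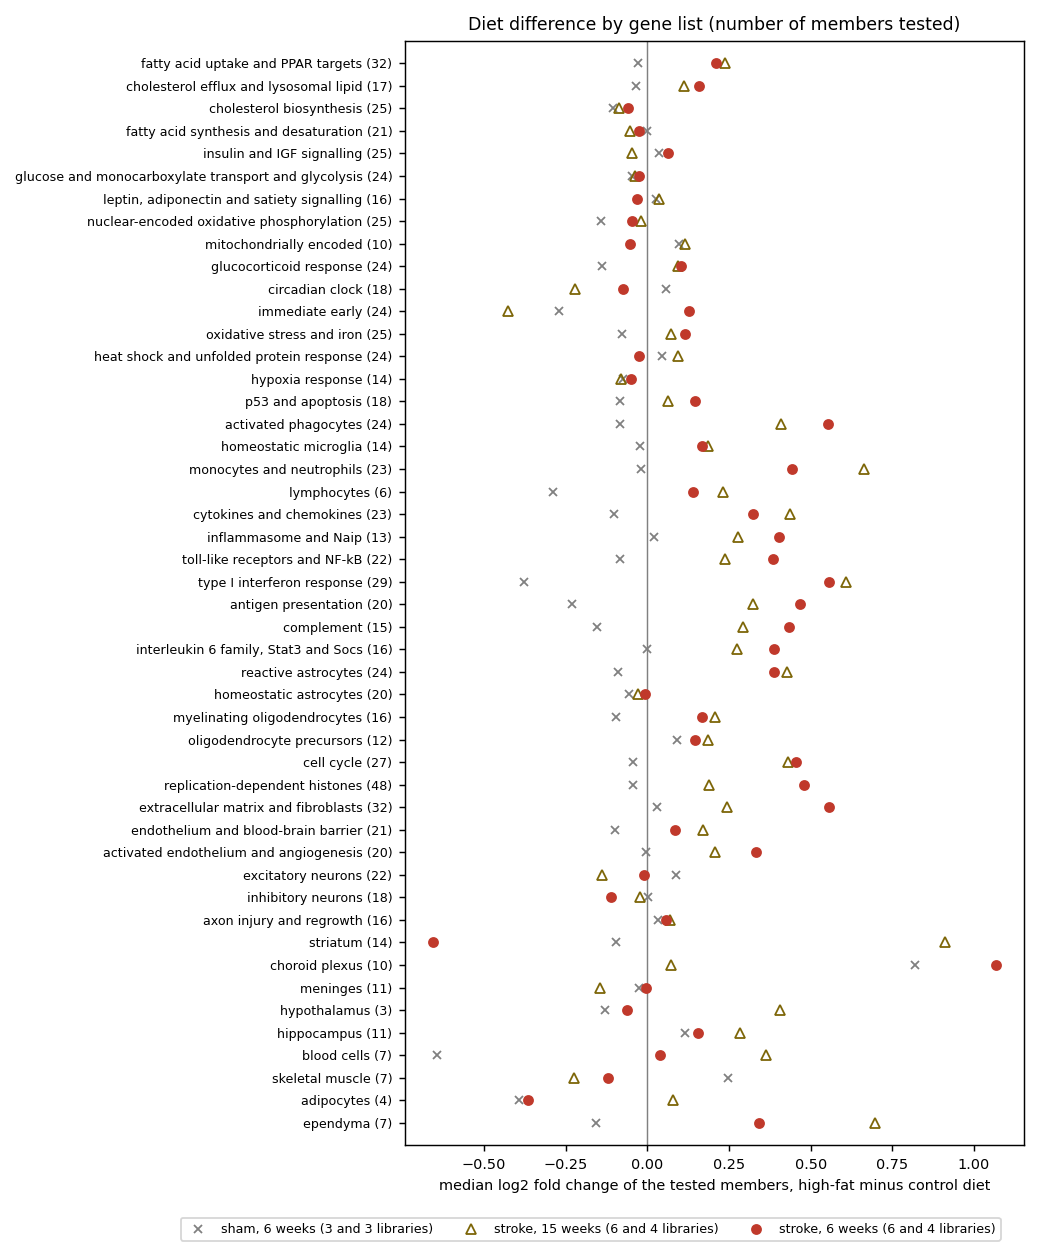
Median log2 fold change (high-fat minus control, x axis) of each gene list, with the number of members tested in parentheses, in 6-week stroke (circles), 15-week stroke (triangles) and 6-week sham cortex (crosses). Histones are at 0.48, 0.19 and -0.04, immediate early genes at 0.13, -0.43 and -0.27, and striatum genes at -0.66, 0.91 and -0.09.

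The same contrast was set against 15-week stroke and sham cortex, with a test of each difference. By edgeR, 0 genes passed an adjusted p of 0.05 for a diet difference that changed with weeks (792 genes, 4.85%, at an unadjusted p under 0.05) or with operation (914 genes, 5.6%). The 6-week stroke and sham groups share no library with each other or with the 15-week groups. Immediate early genes held 12 of 24 members with an unadjusted p under 0.05 for diet by weeks, their median being 0.13 at 6 weeks and -0.43 at 15 weeks. Junb, a subunit of the AP-1 factor, was at 65.8 ± 7.66 CPM on the high-fat diet and 52.6 ± 9.06 CPM on the control diet at 6 weeks, and its log2 fold change was 0.32 ± 0.15 there, -0.42 ± 0.15 at 15 weeks and -0.96 ± 0.20 in sham. Its difference between stroke and sham had an unadjusted p of 3.12e-05 and an edgeR adjusted p of 0.509. Ier5l went from 0.58 ± 0.16 to -0.30 ± 0.16 and -0.58 ± 0.20 in the same order. Slc16a1 was at 0.28 ± 0.08 in 6-week stroke, 0.10 ± 0.08 in 15-week stroke and -0.27 ± 0.10 in sham (by operation, edgeR unadjusted p = 0.000175, adjusted p = 0.715). Adra1d had 0.45 ± 0.13 at 6 weeks and -0.38 ± 0.13 at 15 weeks (by weeks, edgeR unadjusted p = 0.000128, adjusted p = 0.946), and Fezf2 had 0.28 ± 0.11 and -0.30 ± 0.10. Cebpb was at 0.86 ± 0.23 and -0.06 ± 0.22 and Ecel1 at -0.75 ± 0.31 and 0.98 ± 0.34. For striatum genes the medians were -0.66 and 0.91, with 9 of 14 members at an unadjusted p under 0.05 for diet by weeks. Other genes kept their side in 15-week stroke, among them Angptl4 (0.72 ± 0.45 at 15 weeks), Plin4 (1.15 ± 0.36), Fth1 (0.23 ± 0.09), Ly6c2 (1.81 ± 0.65) and Olig1 (0.30 ± 0.14). In sham, Angptl4 had 0.04 ± 0.66 and Plin4 0.04 ± 0.38. For histones 3 of 48 members had an unadjusted p under 0.05 for diet by weeks and 5 of 48 for diet by operation. Interferon genes had a median of 0.61 at 15 weeks and -0.38 in sham, with 0 of 29 members at an unadjusted p under 0.05 for either difference.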

How the data were processed

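RNA of mouse cortex was sequenced as paired-end, stranded total RNA libraries, per the labels' protocols. The authors deposited raw counts per Ensembl gene (39179 gene entries); the submitters' processing notes name Trim Galore, STAR, featureCounts, HTSeq and the build mm9 without versions or roles, and the strand setting is not given in the sources used here. The 5 summary entries were left out. Symbols came from GENCODE M21 for 37607 identifiers. All 26 libraries were fitted together with edgeR 4.0.16 in R 4.3.3 (TMM, filterByExpr with a minimum count of 10, robust quasi-likelihood test, 1 mean per group, Benjamini-Hochberg at 0.05), which left 20 residual degrees of freedom and a biological coefficient of variation of 0.136. SEs are the log2 fold change over the square root of F. Alternatives used DESeq2 1.42.0, limma 3.58.1 and sva 3.50.0, and code was tested on simulated data. The libraries of each pair within a group differed by more than counting noise (chi-square per degree of freedom 3.521 to 27.4 over 21 pairs), so none was counted as a duplicate. Replicate numbers follow accession order and only name a library. The text names the 12 genes per direction with the smallest unadjusted p (annotated symbols, mean of at least 2 CPM in the higher group), up to 4 genes of smallest p per list, and a set list of genes. The genes and lists were chosen with earlier results of these data known, and the histone motifs, the stem-loop search, the GC fits and the fit without the libraries high in choroid plexus genes were added after seeing the data. Some genes of the set list are not reported here.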

Additional observations from a re-analysis of the deposited data

Results flagged for a closer look

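Of 376 groups of values tested, 20 held a library far from the others of its diet group, where chance flags about 1 in 20 groups. High-fat replicate 6 held 9 of the 20. Its list level was 3.6 log2 CPM for choroid plexus genes (0 to 0.65 in the other 5 high-fat libraries) and 4.6 log2 CPM for hippocampus genes (3.03 to 3.55). In the same library Ttr was at 877.6 CPM (2.135 to 47.22), Folr1 at 9.737 CPM (0.1232 to 0.8071), Calml4 at 2.782 CPM (0.3206 to 0.8008), Fibcd1 at 36.82 CPM (4.745 to 13.47), Lct at 7.467 CPM (0.7054 to 2.503) and Jade3 at 17.86 CPM (14.78 to 15.33), and mitochondrial genes took 10.16% of gene counts (7.507% to 8.251%).

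The other flagged high-fat values were 21.7 CPM for H2-Aa in replicate 2 (9.317 to 12.7), 65.57 CPM for Trem2 in replicate 2 (42.53 to 49.44) and 6.22 CPM for Ly6c2 in replicate 5 (1.038 to 2.742). Among the control libraries, replicate 2 stood apart for Aurkb at 3.502 CPM (1.407 to 1.497), Ier5l at 3.63 CPM (6.428 to 6.649), Psmb8 at 16.11 CPM (8.755 to 9.863) and Retn at 1.146 CPM (0.3517 to 0.4608). Control replicate 4 stood apart for the adipocyte list level at 1.13 log2 CPM (0.68 to 0.73), Fasn at 180.4 CPM (224.1 to 231.7) and Igf1 at 10.93 CPM (13.29 to 13.44). Control replicate 3 was apart for Folr1 at 0.6164 CPM (0.191 to 0.2633).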

How the results depend on the processing

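The count of 0 called genes for diet in 6-week stroke became 1 (Naip2) with only the 10 libraries fitted and stayed 0 under the other alternatives run. In 15-week stroke, where edgeR called 0, DESeq2 called 10 genes, and leaving out 1 library gave 0 to 1. In sham DESeq2 called 2 genes (Junb and Tfrc) and limma voom 1 (Junb), and for diet by operation each of these tools called 1 (Junb). No paired analysis was possible because the labels carry no replicate numbers. At an unadjusted p under 0.05, against 486 higher and 655 lower genes, the counts were 1172 and 1524 with limma voom, 1168 and 899 with only the 10 libraries, 912 and 590 without high-fat replicate 6 and the sham library that also held much choroid plexus message, 311 and 310 with 1 surrogate variable, 451 and 471 with only the stroke libraries and 460 and 439 with a minimum count of 50. Leaving out 1 library gave 316 (without control replicate 4) to 846 (without control replicate 2) higher genes and 240 (without high-fat replicate 2) to 990 (without high-fat replicate 6) lower genes. Of 136 named genes, 120 kept their sign under all alternatives run. Of 1224 list medians recomputed under an alternative, 43 moved by more than 1 SD between libraries, 21 of them with 1 surrogate variable, which left the phagocyte, matrix and cell cycle medians at -0.0050, 0.03 and 0.01 and the histone median at 0.28.

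With 1 surrogate variable the sign turned for Abca1 (-0.14), Camk2a (0.12), Ccr2 (-0.018), Cd36 (-0.11), Fos (-0.069), Gfap (-0.056), H2-Aa (-0.33), Igf1 (-0.088), Lepr (-0.22), Per1 (0.12), Serpina3n (-0.15) and Spp1 (-0.058). Fasn turned with GC (-0.038), GC and length (-0.021) and unassigned fragments (-0.0036), P2ry12 with GC (0.063) and GC and length (0.057), Hbb-bs with voom (-0.018), and Igf1 with voom (-0.032) and without both choroid plexus libraries (-0.0051). Per1 turned with RLE (0.0011), voom (0.031), only the stroke libraries (0.0019), the stricter filter (0.0034), upper quartile scaling (0.012), without both choroid plexus libraries (0.055) and without mitochondrial, rRNA and haemoglobin genes (0.0021). Leaving out 1 library turned 9 genes, with ranges of -0.051 to 0.047 for Camk2a, -0.071 to 0.065 for Fasn, -0.040 to 0.31 for Fos, -0.10 to 0.11 for Hbb-bs, -0.066 to 0.047 for Igf1, -0.40 to 0.33 for Il1b, -0.0034 to 0.17 for Lepr, -0.099 to 0.020 for P2ry12 and -0.14 to 0.078 for Per1. The causes were not tested. Counts of 11400882 to 16962682 per library limit genes near or under 1 CPM.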
